A study of Drosophila melanogaster with 2 samples.

Results

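Hr3, Hr4, Eip78C and Blimp-1 are 4 early-late genes of the ecdysone response in *Drosophila melanogaster*, and binding of the nuclear receptor Hr39 around them was examined by chromatin immunoprecipitation and sequencing (ChIP-seq). They were taken by name from 13945 protein-coding genes on the 6 chromosome arms. Their regions were those whose summit, the position of highest signal that the authors give for each region, lay in the gene or within 5 kb of either end. This gave 32 peaks of the 7426 on these arms in the authors' optimal set, the regions they kept after a cut-off on the IDR (irreproducible discovery rate), which weighs how well ranks repeat between replicates. The samples form 1 group of whole white prepupae, the stage at which the larva stops moving and metamorphosis opens, with males and females pooled, and their age is given as unknown. Both came from the strain Hr39-RC-GFP, in which Hr39 carries eGFP at its C terminus, and chromatin was precipitated through the GFP. They are biological replicates 1 and 3; whether the line also kept an untagged Hr39 is not given in the sources used here. Whole animals mix all tissues, so a peak cannot be assigned to a cell type, and no precipitation from animals lacking the fusion and no second stage were analysed here.

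Ecdysone, the steroid hormone of insect moulting, acts through the EcR/Usp receptor on early genes. Early-late genes answer it slightly later, because their full induction also needs proteins made by the early genes. Hr3 is an orphan nuclear receptor related to the vertebrate ROR receptors, which represses early genes and activates ftz-f1 in the middle of the prepupal period. Hr4 is an orphan receptor that takes part in the same switch from early to prepupal gene expression. Eip78C is an orphan receptor related to the vertebrate Rev-erb receptors, and Blimp-1 is a zinc finger repressor that holds back ftz-f1 until the hormone has declined. Hr39 is the other NR5 receptor of the fly beside Ftz-F1, and receptors of that family recognise an AGGTCA core with a 5′ extension.

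The sequences below run from 50 bases before to 50 bases after 6 summits, on the plus strand of the Release 6 genome (dm6) as held by RefSeq. They show the highest-ranked peaks at Hr4 and Eip78C, both promoter peaks of Blimp-1, and the fifth Hr4 peak, which holds an exact match close to its summit. Peaks of each locus are numbered from the strongest by the authors' signal value. Capitals mark matches to any of the motifs searched.
Hr4 peak 1, chrX:1951869-1951969: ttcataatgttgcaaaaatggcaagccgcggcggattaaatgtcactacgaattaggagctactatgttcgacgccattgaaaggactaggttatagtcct
Hr4 peak 2, chrX:1947706-1947806: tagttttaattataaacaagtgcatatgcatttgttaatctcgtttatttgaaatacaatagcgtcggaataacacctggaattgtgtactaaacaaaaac
Hr4 peak 5, chrX:1948647-1948747: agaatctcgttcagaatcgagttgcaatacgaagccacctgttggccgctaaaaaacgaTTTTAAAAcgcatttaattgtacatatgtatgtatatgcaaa
Eip78C peak 1, chr3L:21253852-21253952: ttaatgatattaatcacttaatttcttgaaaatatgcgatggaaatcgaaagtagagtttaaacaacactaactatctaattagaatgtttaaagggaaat
Blimp-1 peak 1, chr3L:5630276-5630376: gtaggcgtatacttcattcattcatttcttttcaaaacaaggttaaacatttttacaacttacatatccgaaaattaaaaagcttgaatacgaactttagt
Blimp-1 peak 4, chr3L:5635335-5635435: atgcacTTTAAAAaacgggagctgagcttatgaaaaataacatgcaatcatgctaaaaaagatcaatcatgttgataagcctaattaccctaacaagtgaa
The capitals in Blimp-1 peak 4 are the AT-rich word TTTAAAA, and those in Hr4 peak 5 are overlapping matches to this word on both strands. The 3 highest-ranked summits of these genes, Hr4 peaks 1 and 2 and Eip78C peak 1, hold no match to any motif searched, the AGGTCA core included. Their G and C content differed, at 42.6% for Hr4 peak 1, 28.7% for Hr4 peak 2 and 24.8% for Eip78C peak 1.

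All 4 loci held Hr39 peaks, and most of these lay in introns. Hr4 held 12 peaks, Hr3 10, Eip78C 6 and Blimp-1 4, where 53.3% of protein-coding genes had at least 1 in the same window and the median gene had 1. Among the 500 protein-coding windows nearest in length to each of the 4, 75.2% to 78.4% had at least 1. Of the 32 summits, 21 lay in introns, 4 within 1000 bp of a transcription start site (TSS) of the gene itself, 7 elsewhere in the flanks and 0 in exons. Counted by 1 rule over protein-coding genes of any name, promoters not set apart, 23 of the 32 lay in introns, against 51.8% of all optimal summits, and 0 in exons, against 7.55%. A TSS of any gene lay within 1000 bp of 10 of the 32, against 47.4% of all optimal peaks. The genes were named for study with results of these data known, so these counts are a description and carry no test.

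Locus length differs, and longer windows hold more peaks. The windows spanned 76.0 kb at Hr4, 49.9 kb at Eip78C, 43.4 kb at Hr3 and 31.1 kb at Blimp-1, which gave 1.58, 1.2, 2.31 and 1.29 peaks per 10 kb in that order. Hr3 was thus the densest of the 4 in the optimal set. A replicate alone was taken, here and below, as its 7426 regions of highest signal on the arms. With replicate 3 alone Hr3 was again the densest, with 9 peaks (2.08 per 10 kb) against 12 (1.58) at Hr4. With replicate 1 alone Hr3 held 7 and Hr4 13, and the order turned, at 1.61 and 1.71 per 10 kb. Among the 500 protein-coding windows nearest in length, 97.0% held fewer peaks than Hr3 and 93.6% fewer than Hr4. For Eip78C the share was 82.2% and for Blimp-1 72.2%, and the median of such windows was 3 peaks for Hr4 and 2 for each of the other 3 genes. The windows compared ran from 33.6 to 55.9 kb for Hr3, 36.9 to 67.4 kb for Eip78C and 26.5 to 36.6 kb for Blimp-1. For Hr4 they ran from 44.4 to 129.8 kb, so length was matched only loosely there. The order of the 4 shares did not hold in each replicate. With replicate 3 alone they were 95.8% for Hr3, 94.2% for Hr4, 75.8% for Eip78C and 83.0% for Blimp-1. With replicate 1 alone they were 90.0%, 95.6%, 76.8% and 60.6% in that order. Among optimal regions stronger than the median one, they were 98.0% for both Hr3 and Hr4, 45.0% for Eip78C and 80.0% for Blimp-1. With summits within 300 bp counted once, the share was 90.8% for Hr3 and 94.0% for Hr4.

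**Figure D1:**
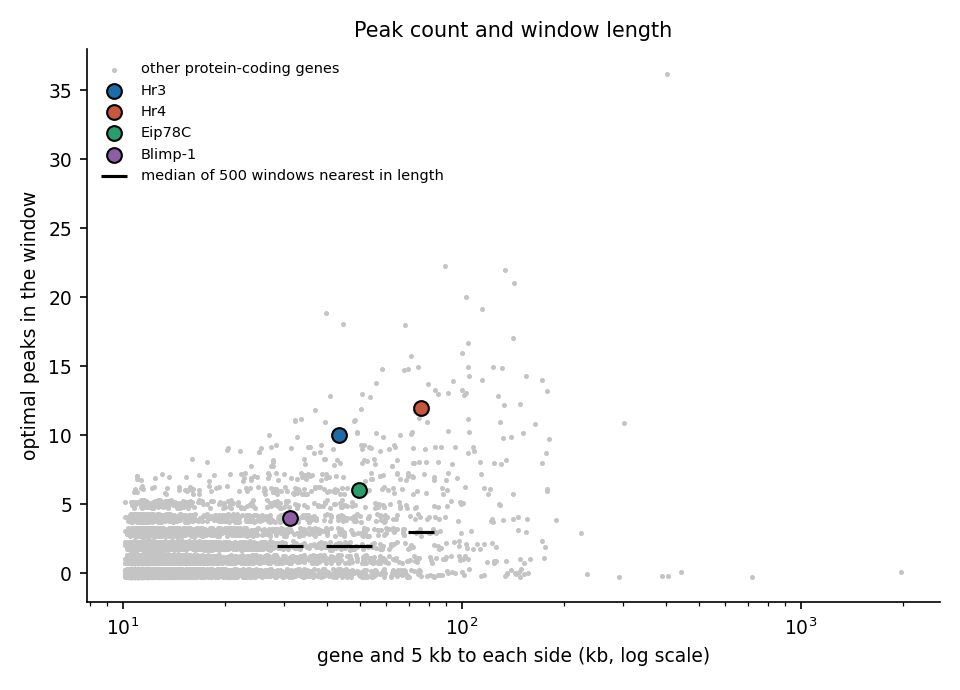
Optimal peaks in the window of each protein-coding gene (vertical axis) against the length of the window in kb (horizontal axis, logarithmic); grey points are other genes, moved slightly up or down at random so that they can be seen, coloured points the 4 early-late genes, and black bars the median of the 500 windows nearest in length to each. Hr3 with 10 and Hr4 with 12 lie well above their bars, and Blimp-1 with 4 lies above its bar at 2.

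Eip78C and Hr4 held peaks among the 100 strongest of the optimal set, and Hr3 and Blimp-1 did not. A summit ranked 1 to 100 by signal lay in 2 of the 4 windows, where 2.15% of protein-coding gene windows held one. That share covers windows of any length and was not matched to the length of these loci. The best rank was 60 of 7426 at Eip78C, 82 at Hr4, 474 at Hr3 and 2701 at Blimp-1. The median rank within a locus ran in another order, from 1444.5 at Hr4 through 2972 at Hr3 and 3315.5 at Blimp-1 to 4913 at Eip78C. Over all 32 peaks the median rank was 3131, against 3713.5 over the optimal set. In the top 10% of the set lay 5 peaks, among them Hr3 peaks 1 and 2, at ranks 474 and 701. The signal values are the authors' own, grow with sequencing depth and were compared only within a list.

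The map of the loci shows how differently the peaks are laid out. At Hr4 they crowd the start of the gene, at Eip78C they sit together deep inside it, at Hr3 they spread from end to end, and at Blimp-1 they keep to its first part and upstream.

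**Figure D2:**
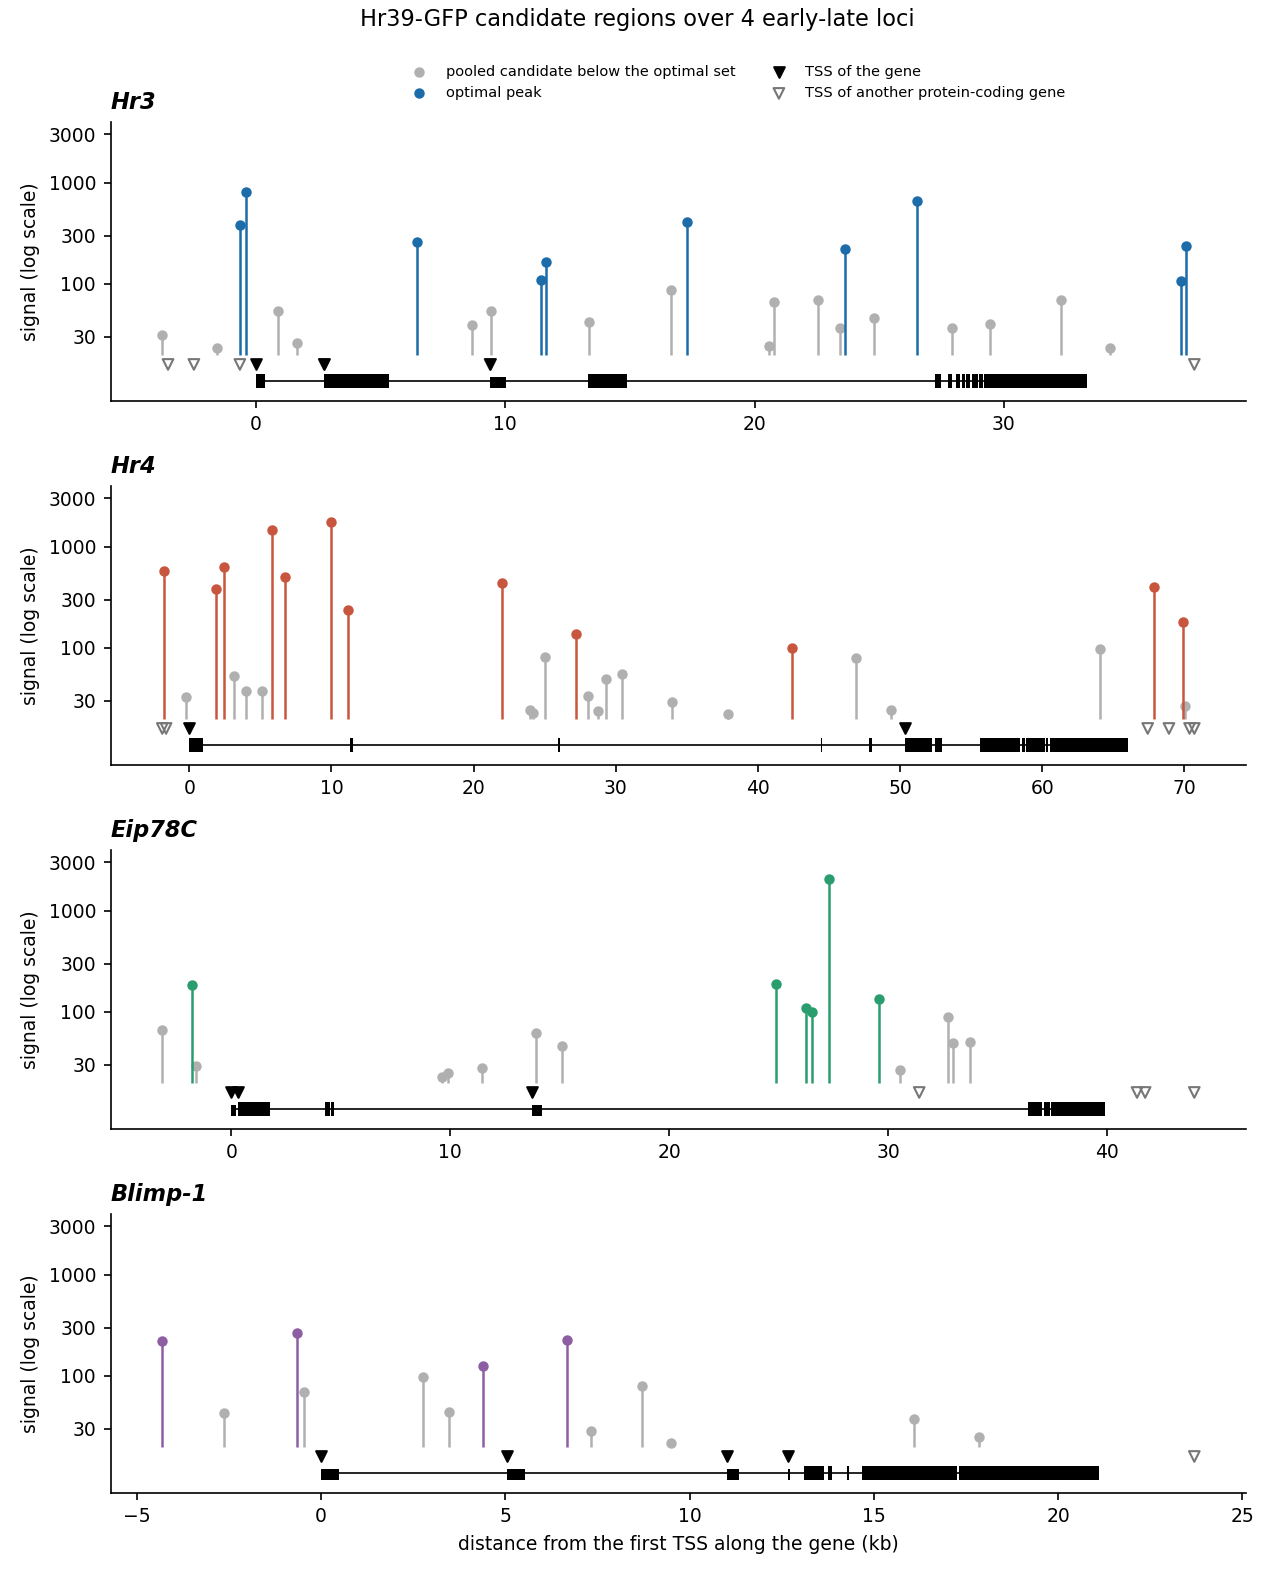
Maps of the 4 loci by distance in kb from the first TSS along the gene, with exons as black boxes and TSSs as triangles (filled for the gene, open for other protein-coding genes); each stem is a summit, and its height the authors' signal in the pooled list on a logarithmic axis, coloured for optimal peaks and grey for weaker candidates. The tallest stem of the Eip78C locus stands at 2054.3 and that of the Blimp-1 locus at 267.1.

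Hr4 (FBgn0264562; X, 1941940 to 2007956, plus strand, dm6) is a 66.0 kb gene with 9 isoforms that start at 2 TSSs. Its strongest peak, at 1951730 to 1952101 with the summit at 1951919, had a signal of 1733.3 and ranked 95 in replicate 1 and 74 in replicate 3. The second, at 1947554 to 1947960 with the summit at 1947756, had a signal of 1458.3 and ranked 137 and 106 in replicates 1 and 3. The summits lay 9979 and 5816 bp past the first TSS, and their sequences are the first pair printed above. Both replicates thus placed the same pair of summits near the top of their lists, in the same order.

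Other Hr4 peaks stood around this pair. Peak 3, 2454 bp past the TSS, had a signal of 623.3 and ranked 655 in replicate 1 and 808 in replicate 3. Peak 5, at 6757 bp, had a signal of 499.1 and ranks of 979 and 1303. Peak 6, at 21978 bp, had a signal of 436.0 and ranks of 1365 and 1348. Peaks 3 and 5 shared with peaks 1, 2, 8 and 9 a single 10.4 kb intron, from 1942894 to 1953280, while peak 6 lay in the next one. That intron is intron 2 of 6 isoforms and intron 1 of Hr4-RJ, and its 6 summits spanned 9.3 kb. They carried 71.7% of the signal summed over the locus peaks in replicate 1 and 75% in replicate 3. Most of the Hr4 signal therefore lay in the first part of the gene, in an intron that only the isoforms from the first TSS span.

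The first Hr4 TSS itself, at 1941940, held no optimal peak within 1000 bp, and the nearest was peak 4, 1766 bp upstream. Peak 4 had a signal of 567.8 and ranked 887 in replicate 1 and 879 in replicate 3, and its summit fell between the divergent starts of CG3857 and CG3587, 134 and 133 bp away. In the 3′ flank, peak 7 ranked 1296 and 2256 in replicates 1 and 3. It lay 158 bp from the start of lncRNA:CR45478, 435 bp from that of PIG-K, a subunit of the enzyme that attaches GPI anchors, and 501 bp from that of mir-2496; 2 further unnamed non-coding starts lay 511 and 586 bp away. Peak 10 lay inside east, which encodes a nuclear protein, 494 bp from one of its starts. These 3 flank peaks, which lay closer to starts of other genes than to those of Hr4, carried 17.3% of the locus signal in replicate 1 and 16% in replicate 3. The remaining peaks, numbered 8, 9, 11 and 12, ranked between 1616 and 7339 in the optimal set. The second TSS, at 1992300, used by Hr4-RE and Hr4-RF, had no candidate region of any list within 1000 bp, and its nearest optimal summit lay 7971 bp upstream.

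Eip78C (FBgn0004865; 3L, 21226609 to 21266503, plus strand, dm6) spans 39.9 kb and has 4 isoforms from 3 TSSs. Its strongest peak, at 21253681 to 21254101 with the summit at 21253902, had a signal of 2054.3 and ranked 70 in replicate 1 and 55 in replicate 3. It lay 13555 bp past the TSS of Eip78C-RB, the nearest of the gene, in an intron of 31.7 kb in the isoforms RA, RD and RE and of 22.2 kb in RB. This peak made up 74.8% of the locus signal in replicate 1 and 77.6% in replicate 3, the largest share of any peak in the 4 loci in both replicates. The Eip78C locus was thus dominated by 1 peak, whereas the top peak held 25.7% of the optimal signal at Hr4, 24.2% at Hr3 and 31.8% at Blimp-1.

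The other 5 Eip78C peaks all ranked 4052 or weaker in the optimal set. Peak 2 had a signal of 186.9 and ranked 3556 in replicate 1 and 4767 in replicate 3, and peak 4 had a signal of 132.7 and ranked 6499 and 6153. Peaks 5 and 6, with signals of 108.6 and 98.8 close to the minimum of the optimal set at 98.5, each had a matching summit in 1 replicate, peak 5 with rank 5135 in replicate 1 and peak 6 with rank 5407 in replicate 3. Together with peak 1 these 4 lay within 4.7 kb of the same intron. A copy of the transposable element 412 fills 21243865 to 21251304 of that intron in the reference genome, and the region of peak 2 reaches its edge, with the summit 188 bp away. None of the 32 summits lay inside an annotated transposable element. Peak 3, 1801 bp upstream of the start of RD and RE, ranked 3736 and 4999 and was the peak nearest to either of the 2 upstream TSSs. The only candidate within 1000 bp of any Eip78C TSS was 180 bp past that of RB, at pooled rank 10824, and it had a match in replicate 3, at rank 9936, and none in replicate 1.

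**Figure D3:**
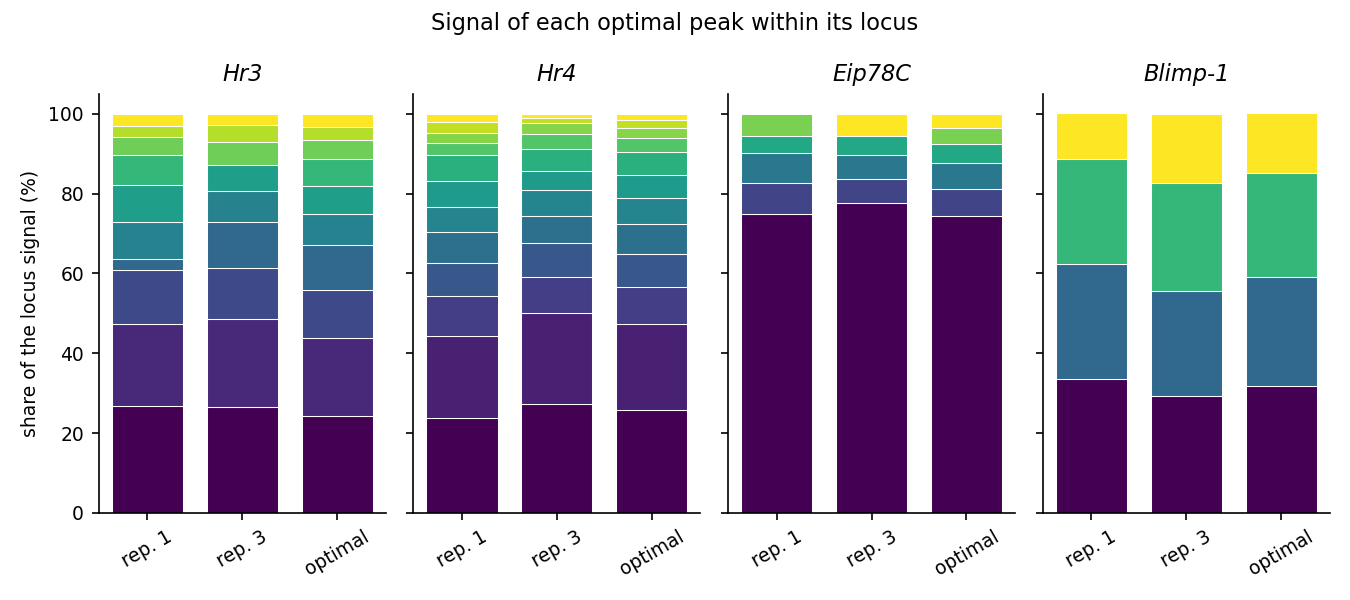
Share in percent of the signal summed over the peaks of each locus that each peak carried, in replicate 1, in replicate 3 and in the optimal set; segments are stacked from the strongest peak (dark) upward, and peaks without a match in a replicate are left out of its bar. The first Eip78C peak carries 74.8% and 77.6%, whereas the Hr4, Hr3 and Blimp-1 signal is spread over several peaks.

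Hr3 (FBgn0000448; 2R, 10203995 to 10237348, minus strand, dm6) spans 33.4 kb and has 6 isoforms from 3 TSSs. Its strongest region, at 10237585 to 10238036, held 2 summits and lay upstream of Hr3, across the start of Hdc, the gene of histidine decarboxylase, which makes histamine. The summit at 10237741 had a signal of 809.9 and ranked 467 in replicate 1 and 468 in replicate 3. It lay 393 bp upstream of the TSS of Hr3-RD and 247 bp from the divergent TSS of Hdc. The summit at 10237971 (peak 4) had a signal of 378.8 and lay 17 bp from the Hdc TSS, 623 bp upstream of Hr3-RD and 174 bp past the start of lncRNA:CR45265. The replicates differed most there, with a rank of 8344 in replicate 1 and 1846 in replicate 3. Which of these genes either summit belongs to cannot be told from its position.

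Inside Hr3, all 6 summits fell in the 26.9 kb first intron of Hr3-RD. Peak 2, with the summit at 10210840, had a signal of 653.5 and ranked 751 in replicate 1 and 654 in replicate 3. It lay near the 3′ end of that intron, 507 bp from the start of lncRNA:CR46322. Peak 3, at 10220045, had a signal of 404.1 and ranks of 1459 and 1568, and peak 5, at 10230869, had a signal of 260.1 and ranks of 2404 and 3270. Peak 7 ranked 3059 in replicate 1 and had no matching summit in replicate 3. Peaks 8 and 9, ranked 4599 and 6874 in the optimal set, had summits within 300 bp of each other. The same 6 summits lay in the 21.9 kb first intron of Hr3-RC and Hr3-RI, while in RA, RF and RH the second intron held 3, the first held 2, and peak 5 lay 2912 bp upstream of their TSS. The annotation also places 2 coding genes, CG12912 and CG46321, on the same strand over Hr3, and these share the TSSs of Hr3-RC and RI and of Hr3-RA, RF and RH; 6 of the summits lie within the first and 5 within the second. The introns carried 58.4% of the locus signal in replicate 1 and 52.8% in replicate 3.

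The downstream flank of Hr3 held peaks 6 and 10, whose summits lay 330 and 539 bp from the TSS of CG34221. Peak 6 ranked 2506 in replicate 1 and 4066 in replicate 3, and peak 10 ranked 7671 and 9408. In all, 5 of the 10 Hr3 peaks lay within 1000 bp of the TSS of another gene, coding or not, and these carried 62.1% of the locus signal in replicate 1 and 69.3% in replicate 3. The corresponding count was 3 at Hr4 and 0 at Eip78C and at Blimp-1. A larger part of the Hr3 count than of the other 3 thus lay beside starts of other genes. Over the whole optimal set, 47.4% of peaks had a start of some gene, the host gene included, no farther than 1000 bp away. The 5 of 10 at Hr3 lay near that share, so this count does not set Hr3 apart from the whole set.

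Blimp-1 (FBgn0035625; 3L, 5630983 to 5652094, plus strand, dm6) spans 21.1 kb and has 6 isoforms from 4 TSSs. Its strongest peak, at 5630128 to 5630523 with the summit at 5630326, lay 657 bp upstream of the start of the isoforms RA, RB and RF. It had a signal of 267.1 and ranked 2626 in replicate 1 and 3057 in replicate 3. Peak 4, at 5635385, had a signal of 124.2, ranked 7788 and 5515, and lay 630 bp upstream of Blimp-1-RC and inside the 12.6 kb first intron of the longer isoforms. Both promoter summits are printed above. Peak 2, 1647 bp past the TSS of RC, had a signal of 228.3 and ranks of 3187 and 3517, and peak 3, 4311 bp upstream of the gene, had a signal of 220.6 and ranks of 3469 and 3413. No peak stood out at Blimp-1, and the 4 signals spanned a narrow range beside those at Hr4 and Eip78C.

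Promoter peaks were thus present at Hr3 and Blimp-1, with 2 each, and at neither Hr4 nor Eip78C, where 25.2% of protein-coding genes had 1 or more. The 2 at Hr3 were summits of the same region. Both lay nearer to the TSS of Hdc than to that of Hr3-RD, so the gene they belong to cannot be told. Of the 12 distinct TSSs of the 4 genes, 3 had an optimal peak within 1000 bp, namely those of Hr3-RD, of Blimp-1-RA, RB and RF, and of Blimp-1-RC. A further 3 had only a weaker candidate of the pooled list. These were the TSS of Hr3-RA, RF and RH with a summit 38 bp away at rank 11913 of 28752, the first Hr4 TSS with one at -248 bp at rank 18310, and that of Eip78C-RB described above. The other 6, including Hr3-RC and RI, Blimp-1-RD and Blimp-1-RE, had no candidate in any list. The counts depend on the distance allowed: at 500 bp Hr3 kept 1 promoter peak and Blimp-1 0, and at 2000 bp Hr4 had 2 and Eip78C 1. Among the 7426 regions of highest signal of replicate 1, Hr3 and Blimp-1 each had 1. Peak 4 of Hr3 and peak 4 of Blimp-1 were found in replicate 1 past that cut, at ranks 8344 and 7788. A candidate outside the optimal set is a weak region that the authors kept as input to the IDR step, background included.

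In their full candidate lists of 30000 regions each, weak ones included, the 2 replicates placed nearly all of these peaks at the same positions. A candidate summit of each replicate lay within 100 bp of 29 of the 32, or 90.6%, against 93.6% over the optimal set. All 12 Hr4 and all 4 Blimp-1 peaks were among them, with 9 of 10 at Hr3 and 4 of 6 at Eip78C. Among the 7426 regions of highest signal of each replicate, the share found in both was 71.9%. It covered 6 of 10 peaks at Hr3, 10 of 12 at Hr4, 4 of 6 at Eip78C and 3 of 4 at Blimp-1. The distance between an optimal summit and the matching replicate summits had a median of 7 bp and a maximum of 79 bp. The ranks in the 2 replicates were within 1.5-fold of each other for 24 of the 29 and more than 2-fold apart for 2, Hr3 peak 4 and Hr4 peak 11, which ranked 3843 in replicate 1 and 9383 in replicate 3. Rank differences over the whole optimal set were not counted, so these counts do not set the peaks apart from it. The optimal regions were drawn from the same replicates pooled, so this is no independent measure of their likeness.

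**Figure D4:**
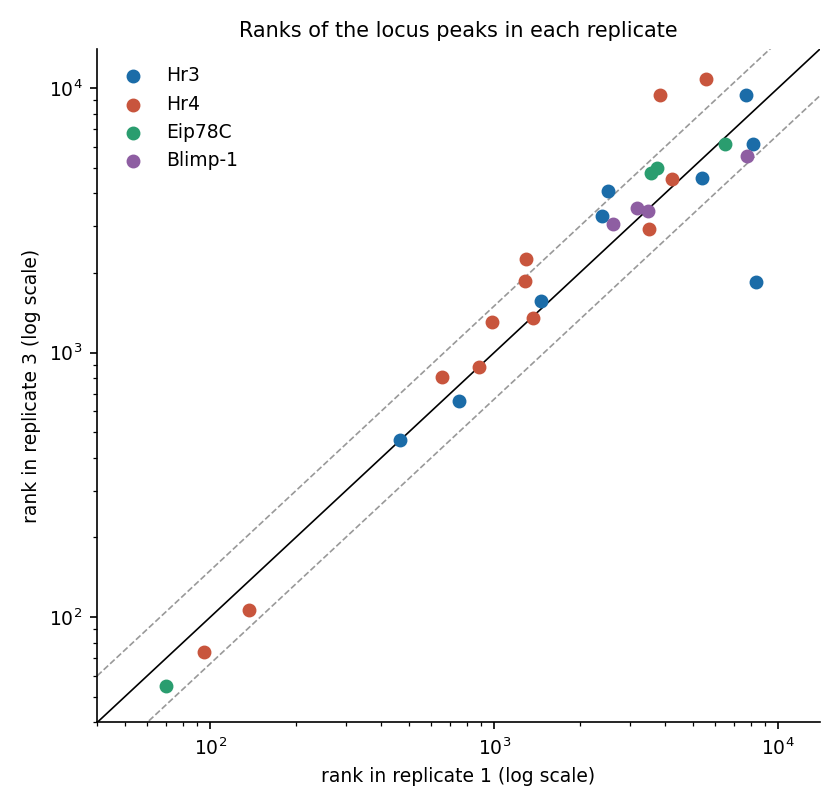
Rank by signal of each early-late peak in replicate 1 against its rank in replicate 3, on logarithmic axes, for the 29 peaks with a summit in both. The solid line marks equal ranks and the dashed lines a 1.5-fold difference; 24 points lie between the dashed lines, and Hr3 peak 4, at 8344 and 1846, lies farthest from it.

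Below the optimal set, the pooled list held a further 17 candidates at Hr3, 17 at Hr4, 11 at Eip78C and 9 at Blimp-1. A summit of each replicate lay near 8, 6, 2 and 3 of these, in that order. The strongest was at Hr4, with the summit at 2005991, a signal of 97.4 and a pooled rank of 7486, and ranks of 10393 and 6554 in replicates 1 and 3. It lay near the 3′ end of the gene and narrowly missed the optimal set. The strongest at Blimp-1 had a pooled rank of 7538, that at Eip78C 8073 and that at Hr3 8238. Replicate 3 listed 97 candidates in the 4 windows and replicate 1 listed 75; Eip78C had 19 and 10. Both lists held 30000 regions, and their depth is unknown.

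The limit of 5 kb set which flank peaks were counted. The outermost peak inside it lay 4311 bp from the gene at Blimp-1 (rank 3380), 3954 bp at Hr3 (rank 3159), 3858 bp at Hr4 (rank 4232) and 1801 bp at Eip78C (rank 4088). The first peak outside lay 7467 bp from Eip78C (rank 5155), 19073 bp from Blimp-1 (rank 657), 29123 bp from Hr4 (rank 5318) and 34083 bp from Hr3 (rank 974). At Blimp-1 the first peak outside ranked above all peaks inside, and at Hr3 it ranked above most.

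Of the sequence features searched, none set these peaks apart by count. Within 50 bp of the summit and on both strands, 0 of the 32 held the nuclear receptor core AGGTCA, which 1.99% of all optimal summits and 2.42% of windows 500 bp to each side of them held. The NR5 element CAAGGNCA, which contains part of that core and all of it where N is T, was in 0 of the 32, 0.848% of all summits and 1.12% of the side windows. The AP-1 word TGANTCA and the DRE word TATCGATA were in 0 of the 32 as well, and in 2.75% and 1.23% of all summits. At such shares fewer than 1 match would be found on average in 32 windows, so these counts say only that the letters are not there. GAGAG was in 1 of the 32, Hr4 peak 11, and in 8.79% of all summits. TTTAAAA was in 4 of the 32, or 12.5%, and in 13.7% of all summits against 4.4% of the side windows. The 4 windows that held TTTAAAA were those of Hr3 peak 1, Hr4 peaks 5 and 10, and Blimp-1 peak 4.

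Base composition and spacing varied more among the peaks. The bases within 50 bp of the summits held 36.6% ± 10.6 G and C (SD, n = 32 peaks), against 33.9% ± 8.10 (SD) over all 7426, and ranged from 21.8% at Hr4 peak 10 to 65.3% at Eip78C peak 5. G and C were lower at the summit than in the windows 500 bp to each side for 26 of the 32, against 82.2% of all summits. This held for all 10 Hr3 and all 4 Blimp-1 peaks, 9 of 12 at Hr4 and 3 of 6 at Eip78C. Another summit lay within 300 bp of 8 of the 32, against 9.26% of all, and with such neighbours counted once Hr3 held 7 sites and Eip78C 5. A width of exactly 396 bp was shared by 45.7% of all regions and by 14 of these 32, all ranked 2701 or weaker, and the other 18 were 134 to 452 bp wide.

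Other genes of the ecdysone cascade gave a setting for these counts. Of 18 names, 17 matched a gene of the annotation, and 15 of those had a peak in the same window, against 53.3% of all protein-coding genes. A promoter peak was found at 11, against 25.2% of all, and the median was 3 peaks with a range of 0 to 15. EcR, the ecdysone receptor, held 10, of which 3 were promoter peaks, and usp, its partner, held 3, of which 2 were. The coactivator gene tai held 8, and the early genes br, Eip74EF and Eip75B held 3, 10 and 15. By count alone, Hr3 and Hr4 thus lay among the loci with many peaks, with EcR, Eip74EF, Eip75B and Eip63E, a cyclin-dependent kinase gene that held 10. In contrast, crol and Cyp18a1, which encodes an ecdysone-inactivating cytochrome P450, held 0. Window length was not matched in these comparisons. It was 91.2 kb at EcR, 70.7 kb at Eip74EF, 123.7 kb at Eip75B and 104.8 kb at Eip63E, against 43.4 kb at Hr3 and 76.0 kb at Hr4. The best rank was 17 at Eip75B, ahead of Eip78C, and 6251 at br.

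Few genes matched Hr3 or Hr4 in count and length, and more matched Eip78C and Blimp-1. Only 2 protein-coding genes held 10 peaks in a window within 20% of the length of that of Hr3, namely dlp, which encodes a glypican, with a best rank of 1191, and CG32719, with 2824. For Hr4 there were 3, of which rdx, which encodes a ubiquitin ligase adaptor, was nearest in best rank at 211 and sima, the HIF alpha gene, next at 552. Eip78C had 19, with gpp, the gene of a histone H3 methyltransferase, at 130 and osa, the gene of a Brahma complex subunit, at 12. Blimp-1 had 71, the nearest being CG46311 at 2735 and CG14200 at 2346. The count and window length of Blimp-1 were thus shared by more genes than those of the other 3. How many genes had windows of each length was not set beside these numbers, and positions of peaks were not compared.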

How the data were processed

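Chromatin of whole white prepupae expressing Hr39 fused to eGFP was sheared by sonication (200 to 800, unit unstated) and pulled down through the GFP tag, per the labels' descriptions, although their antibody field reads Hr39. For dm6 the authors deposited an optimal set (7444 regions), a pooled candidate list (28773) and a candidate list for replicate 1 and for replicate 3 (30000 each), each made with 1 control alignment per the deposited notes. Aligner and peak caller: not given in the sources used here. For each region the authors deposited a signal value, not scaled to depth, since the pooled maximum, 6049, is close to what the maxima of replicates 1 and 3, 3119 and 2962, add up to, and a −log10 q value, which was not used for ranking. The optimal set was exactly the pooled regions of highest signal, so optimal and pooled ranks are the same. Regions off the 6 arms (18 of the optimal set), the control and the dm3 lists were not used. Peak lists hold no read counts, so depth is unknown.

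Summits were placed on genes of the Ensembl 115 annotation, whose limits for the 4 genes equal those of RefSeq on the same build; sequences came from the RefSeq genome. Summits within 100 bp were matched between lists, and regions were ranked by signal within a list. Python 3.11.15, numpy 2.4.6, pandas 2.3.3 and matplotlib 3.10.9 were used, and the counting was tested on simulated data. No test was made, since there is 1 group with 2 replicates and the members, gene list and motifs were chosen with earlier results of these data known. Named were the 4 genes with the strongest 6 peaks of each locus, genes with a TSS within 1000 bp of these peaks, the first 6 genes of the cascade list and the 2 genes most like each member. The genes crol, Cyp18a1, Eip63E and E23, 2 weaker peaks (Hr4 peaks 10 and 11) and other lower peaks were named after their values were seen.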

Additional observations from a re-analysis of the deposited data

How the results depend on the processing

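Of 96 values under alternative settings, 66 stayed within a set limit of the reported value and 30 passed it. The limit was 1.5 times for a count and 1 SD between the 2 replicates for a rank or a share of like windows. For the share found in both replicates it was the exact Clopper-Pearson interval over the 32 peaks. With 2 replicates that SD was small for some genes and large for others, so these labels do not measure stability. The Hr3 best rank of 468 passed its limit beside 474, whereas the Blimp-1 share of 60.6% stayed within its limit beside 72.2%. The causes were not tested beyond the construction of each setting. Without the 5 kb flanks, Hr3 held 6 peaks and Blimp-1 2, the best ranks became 701 for Hr3 and 3251 for Blimp-1, and the share of like windows with fewer peaks was 90.2% for Hr3, 90.0% for Hr4 and 83.0% for Eip78C. In the stronger part of the optimal set (signal above its median) Eip78C kept 1 peak and Blimp-1 had 1 promoter peak, and the share of like windows with fewer peaks was 98.0% for Hr4 and 45.0% for Eip78C. At 500 bp from a TSS there was 1 promoter peak at Hr3 and 0 at Blimp-1; at 2000 bp there were 2 at Hr4 and 1 at Eip78C; with the first 5′ end alone there was 1 at Blimp-1. With 1000 like windows the Hr4 share was 95.6%. Counting summits within 300 bp once, an alternative chosen after the data were seen, gave 90.8% for Hr3 and 77.2% for Eip78C. The share of peaks found in both replicates was 100% by overlap of regions and 71.9% among the 7426 regions of highest signal of each replicate. Shares over the whole optimal set are not given for these settings. For replicate 1 or replicate 3 alone, the 7426 regions of its highest signal were used. Promoter peaks then ranged from 1 to 2 at Hr3 and from 1 to 2 at Blimp-1, the lower value being that without replicate 3. The share of like windows with fewer peaks ranged over 90.0% to 95.8% for Hr3, 94.2% to 95.6% for Hr4, 75.8% to 76.8% for Eip78C and 60.6% to 83.0% for Blimp-1. The best rank ranged from 467 to 468 for Hr3 and from 2626 to 3057 for Blimp-1. Hr4 and Eip78C held 0 promoter peaks with either replicate alone. No paired analysis was possible because there is 1 group.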
